A study of Schizosaccharomyces pombe with 28 samples.

Results

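Hybridisations 1 to 8, 19 and 20 are 10 of 28 self-self arrays of the fission yeast Schizosaccharomyces pombe, picked because their log2 ratios correlate with each other. On every array both channels carried cDNA of the wild-type strain LJY1014, genotype h- leu1-32, in early-log growth in YES, a rich medium. The labels name neither a treatment nor any difference between arrays, so the 28 arrays are a single group. They call the cultures independent, and nothing in them tells which arrays share a culture, an extract, a slide print or a labelling. A mean ratio near 0 is what equal amounts of a transcript in both channels give. The labels do not say which channel is the numerator, so a sign names no dye and no culture. In RNA from whole cultures, a change in every cell and a change in a share of the cells cannot be told apart. Ratios hold no levels, so genotype and growth phase could not be checked on marker genes.

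Genes were taken when both of their probes lay on the same side of 0 in all 10 arrays after each array was centred on its median. That rule was met by 664 of 4929 gene identifiers (13.5%), 378 above 0 (7.67%) and 286 below 0 (5.8%). Without centring, 259 genes lay above and 377 below, so the balance of the sides rests on the centring. All 259 were among the 378, and 285 of the 286 were among the 377. Of the 664, 647 are annotated with 1 gene on the platform, and the other 17 (10 above and 7 below 0) are not named. Arrays and genes alike were chosen by these log2 ratios of the 10 arrays, so what follows on them is a description without a test. The values of the other 18 arrays played no part in which genes met the rule, and tests are made there. Those arrays were themselves sorted into sets by their correlations, and some of the genes named below were picked by their difference from them. The tests treat the correlated arrays of a set as independent, so the p-values given below for a set are too small.

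The arrays 9 to 18 and 21 to 28 form 2 further sets of like arrays, which were also told apart by their correlations. Between pairs of the 10 arrays, Pearson's r over genes ran from 0.46 to 0.87 with a median of 0.69. With arrays 9 to 18 the median r was 0.16, and with arrays 21 to 28 it was -0.03. Within the 10, arrays 1 to 6 and 19 correlated at a median of 0.78, arrays 7, 8 and 20 at 0.80, and pairs across these subsets at 0.58. Genes within an array share its slide, depth and labelling, so these values carry no p.

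The functions that recur below respond to what a fission yeast culture takes up and how fast it grows. Ribosomal protein genes are transcribed together at rates that follow growth, and they are among the shortest and most strongly expressed genes of this yeast. Copper and iron uptake genes are switched on when the metal runs short, by the copper-sensing activator Cuf1 and through the repressor Fep1 respectively. Heat-shock chaperones and the enzymes that detoxify peroxides are induced by heat shock factor, by the Sty1 kinase with its partner Atf1 and by the oxidant-responsive factor Pap1.

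The 378 genes above 0 had gene means from 0.13 to 1.37 with a median of 0.37, and 270 of them (71.4%) were at 0.3 or more. The 286 below 0 had means from -0.11 to -1.51 with a median of -0.29, and 126 (44.1%) were at least 0.3 from 0. The typical SD of such a gene over the 10 arrays was 0.15 above 0 and 0.10 below, as medians over genes. The genes above 0 thus lay farther from 0 than those below it, and varied more between arrays.

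The copper uptake genes ctr4 and ctr5 varied little over the 10 arrays. The copper transporter subunit gene ctr4 lay at 0.61, 0.76 and 0.83 (lowest, median and highest of the 10 arrays), with a mean of 0.74 ± 0.08 (SD, n = 10). It was at -0.11, 0.30 and 0.41 in arrays 9 to 18 and at -0.89, -0.74 and -0.53 in arrays 21 to 28. The 3 sets of arrays did not overlap. Its partner ctr5, which forms the plasma membrane transporter with Ctr4, averaged 0.59 ± 0.09 in the 10 arrays. It averaged 0.04 ± 0.17 in arrays 9 to 18 (n = 10) and -0.64 ± 0.19 in arrays 21 to 28 (n = 8). The vacuolar copper exporter ctr6 averaged 0.54 ± 0.26, with its probes at 0.19 and 0.90. It split the 10 arrays, with 0.41 to 0.89 in arrays 1 to 6 and 19 and 0.19 to 0.26 in arrays 7, 8 and 20. The median of the list ran from 0.33 to 0.72. Of the 4 genes of the copper uptake list, 3 met the rule above 0, and the activator gene cuf1 itself (0.13) did not. Tested with limma in the arrays that the rule did not use, ctr4 was above 0 in arrays 9 to 18 (adjusted p = 0.000128) and below 0 in arrays 21 to 28 (adjusted p = 5.29e-07). For ctr5 only the second departure passed, with a limma adjusted p of 0.485 in arrays 9 to 18 and 2.81e-05 in arrays 21 to 28.

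The reductive iron uptake genes fio1, fip1 and frp1, which encode the multicopper oxidase, the iron permease and the ferric reductase of the cell surface, were among the genes farthest below 0. Their means over the 10 arrays were -1.51 ± 0.08 for fio1, -1.09 ± 0.12 for fip1 and -0.81 ± 0.17 for frp1. In arrays 9 to 18 they were lower still, at -2.40, -2.25 and -2.27, and in arrays 21 to 28 they were above 0. Of the 15 genes of the iron starvation list, these 3 met the rule below 0. The list also holds pcl1, a vacuolar iron importer gene, which met the rule above 0 with a mean of 0.28. Its product does not serve uptake at the cell surface, so its side need not oppose that of the 3. The median of the list was -0.21 in the 10 arrays, -0.55 in arrays 9 to 18 and 0.08 in arrays 21 to 28. The copper transporter genes and the 3 reductive iron uptake genes thus lay on opposite sides of 0 in the 10 arrays.

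The gene for copper-zinc superoxide dismutase, sod1, lay below 0, at -0.92, -0.82 and -0.59 (lowest, median and highest). It ran from -0.52 to -0.11 in arrays 9 to 18 and from 0.66 to 0.89 in arrays 21 to 28, so that no set overlapped another. The opposed departure in arrays 21 to 28 passed limma's test with a mean of 0.78 ± 0.09 (n = 8, adjusted p = 9.23e-08). Most other genes of the oxidative stress defence list lay on the other side. Of 31 measured, 8 met the rule above 0 (25.8%, against 7.67% of all genes), sod1 alone met it below, and 27 had a mean above 0. The glutathione S-transferase gene gst4 and the gene oxs1, which are not on the list, met the rule below 0. They ran from -0.42 to -0.13 and from -0.45 to -0.26 in the 10 arrays. The list median was 0.20 in the 10 arrays, with single arrays between 0.15 and 0.28, and it was 0.00 in arrays 9 to 18 and 0.03 in arrays 21 to 28.

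The glutathione S-transferase gene gst2, whose product conjugates glutathione to reactive compounds, had the second highest mean of all genes, 1.11 ± 0.08 (n = 10), a 2.15-fold ratio of the channels. Its lowest, median and highest values were 0.97, 1.12 and 1.21 in the 10 arrays, -0.06, 0.13 and 0.23 in arrays 9 to 18, and -0.74, -0.53 and -0.32 in arrays 21 to 28. The gap of 0.74 between the 10 arrays and the nearest of the other 18 was the widest among the 664 genes. The departures elsewhere passed limma's test in opposite directions, with adjusted p = 0.00468 in arrays 9 to 18 and 2.81e-05 in arrays 21 to 28. The flavodoxin-like gene obr1 averaged 0.72 ± 0.13 and was below 0 in both other sets, at -0.22 ± 0.12 (limma adjusted p = 6.67e-05) and -0.30 ± 0.20 (limma adjusted p = 0.00372). The sulfiredoxin gene srx1, which reactivates peroxiredoxin, averaged 0.53 ± 0.29 against -0.68 ± 0.08 in arrays 9 to 18 (limma adjusted p = 5.25e-11) and 0.17 in arrays 21 to 28. In none of these 3 genes did the 10 arrays overlap arrays 9 to 18. The other members above 0 were the glutaredoxin gene grx5 (0.34), the glutathione reductase gene pgr1 (0.32), the thioredoxin gene trx2 (0.23), ccs1, a copper chaperone for superoxide dismutase (0.21), and bcp1 (0.13).

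**Figure D1:**
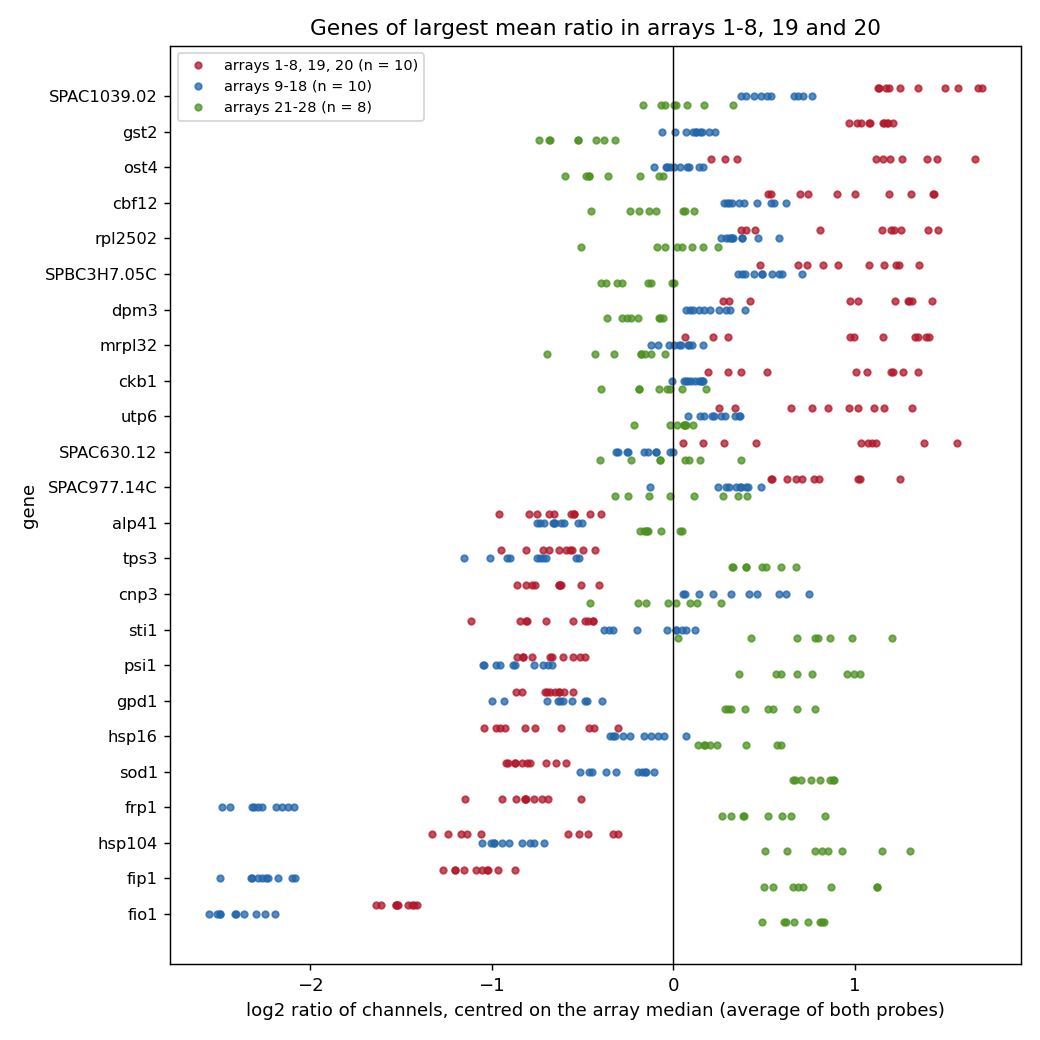
Each point is a gene's log2 ratio in 1 array, with arrays 1 to 8, 19 and 20 in red, arrays 9 to 18 in blue and arrays 21 to 28 in green. Shown are the 12 genes of highest and the 12 of lowest mean in the 10 arrays, among identifiers that met the rule and are annotated with 1 gene. The red points of gst2 lie between 0.97 and 1.21, to the right of its own blue and green points. For fio1, fip1 and frp1 the red points lie between the blue and the green points of the same gene.

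Cytosolic chaperone genes lay below 0. Of 32 measured, 8 met the rule below 0 (25.0%, against 5.8% of all genes) and 0 above. The list median was -0.13 in the 10 arrays, -0.02 in arrays 9 to 18 and 0.22 in arrays 21 to 28. The disaggregase gene hsp104 had a mean of -0.82 ± 0.41 and ran from -1.33 to -0.31. It split the 10 arrays, with arrays 1 to 6 and 19 between -1.33 and -0.52 and arrays 7, 8 and 20 between -0.47 and -0.31. The small heat-shock protein gene hsp16 averaged -0.73 ± 0.26, and there arrays 7, 8 and 20 were in the lower range, from -1.04 to -0.93, against -0.96 to -0.31. The Hsp70-Hsp90 co-chaperone gene sti1 lay at -1.12, -0.63 and -0.44 (lowest, median and highest). Arrays 9 to 18 ran from -0.38 to 0.12 and arrays 21 to 28 from 0.03 to 1.20, all above the 10 arrays. The Hsp40 gene psi1 averaged -0.68 ± 0.14 and was also low in arrays 9 to 18 (-0.86 ± 0.14, limma adjusted p = 1.39e-10).

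All 4 chaperone genes were above 0 in arrays 21 to 28, with means of 0.87 for hsp104, 0.31 for hsp16, 0.72 for sti1 and 0.74 for psi1. The limma adjusted p-values there were 5.78e-05, 0.00225, 0.00143 and 6.35e-05. The Hsp70 gene ssa1 (-0.35), hsp9 (-0.36), wis2 (-0.29) and sgt1 (-0.28) were the other list members that met the rule. Subunit genes of the ring-shaped CCT chaperonin met the rule on neither side, and their means ran from -0.06 for cct4 to 0.40 for cct2. Of 7 mitochondrial chaperone genes, 2 met the rule below 0, the disaggregase gene hsp78 (-0.49) and the Hsp60 gene mcp60 (-0.25).

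Of the 35 core stress genes, which overlap both lists above, 5 met the rule below 0 (14.3%, against 5.8% of all genes). Above 0 it was met by 2 (5.71%, against 7.67%). Below 0 were psi1, hsp16 and hsp9, the transcription factor gene atf1 (-0.34) and gpd1, the glycerol-3-phosphate dehydrogenase gene of glycerol synthesis (-0.68 ± 0.10). Above 0 were gst2 and plr1, a pyridoxal reductase gene (0.66 ± 0.23). Outside that list, the gene tps3, for a subunit of the trehalose-phosphate synthase, averaged -0.64 ± 0.15 in the 10 arrays, -0.79 in arrays 9 to 18 and 0.47 in arrays 21 to 28. The share of core stress genes meeting the rule was thus higher below 0, and lower above 0, than among all genes. The median of the list was still -0.03, close to the 0.02 of all genes. Of its genes, 16 had a mean above 0 and 19 below, so the list as a whole did not lie on a common side.

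Cytosolic ribosomal protein genes made up 71 of the 378 genes above 0 and 0 of the 286 below. For the large subunit 46 of 80 genes met the rule above 0 (57.5%), and all 80 had a mean above 0. For the small subunit 25 of 46 did (54.3%), and 45 had a mean above 0. The median of the large-subunit list was 0.33, with single arrays from 0.16 to 0.40, and that of the small-subunit list was 0.34, from 0.17 to 0.43. In arrays 9 to 18 the medians were 0.07 and 0.04, and in arrays 21 to 28 they were 0.13 and 0.15, where single arrays ran from -0.16 to 0.39 for the large subunit. In both lists the highest arrays among 21 to 28 lay within the range of the 10 arrays, and arrays 9 to 18 lay below it.

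The large-subunit gene rpl2502 had the highest mean, 0.97 ± 0.43, and spread from 0.37 to 1.46. The small-subunit gene rps3002 averaged 0.79 ± 0.26, and rps3001, which encodes the same subunit protein from another locus, averaged 0.64 ± 0.16. Near-identical copies such as these can share signal on a probe, so values of the single copies are uncertain. Other named members were rpl3702 (0.72 ± 0.17), rps1902 (0.68 ± 0.28), rpl2402 (0.65 ± 0.29), rpl39 (0.63 ± 0.19) and rps2201 (0.61 ± 0.25).

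Translation factors had 9 of 40 genes above 0 (22.5%) and 0 below, with a list median of 0.15. Among them the eIF4A helicase gene tif1 averaged 0.79 ± 0.47. Its values in arrays 1 to 6 and 19 ran from 0.75 to 1.23 and in arrays 7, 8 and 20 from 0.14 to 0.15. The gene tif212, for a subunit of eIF2, averaged 0.58 ± 0.40, and eft201, an elongation factor 2 gene, 0.43 ± 0.16. Of 58 mitochondrial ribosomal protein genes, 8 met the rule above 0 (13.8%) and 3 below (5.17%). The former were led by mrpl32 (0.92 ± 0.53) and the latter by mrpl20 (-0.44 ± 0.10). The list median of 0.11 was close to the 0.12 of arrays 9 to 18.

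Ribosome biogenesis genes, whose products process rRNA and assemble the subunits, did not follow the ribosomal protein genes. Of 103 measured, 14 met the rule above 0 (13.6%) and 6 below (5.83%), and the median was 0.01. In arrays 9 to 18 the median of the same list was 0.22. Among the genes above 0 were utp6 (0.84 ± 0.35), the helicase gene drs1 (0.72 ± 0.46), nhp2 (0.57 ± 0.09) and tif6 (0.55 ± 0.28). Below 0 were rrp1402 (-0.43 ± 0.15), mpp10 (-0.36 ± 0.17), cgr1 (-0.34 ± 0.11) and rrp36 (-0.30 ± 0.13). The last 3 of these were above 0 in every one of arrays 9 to 18. For cgr1 the lowest, median and highest values there were 0.21, 0.62 and 0.94, against -0.48, -0.36 and -0.13 in the 10 arrays. These 3 genes were singled out by their values in arrays 9 to 18, so no test of them there is given.

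**Figure D2:**
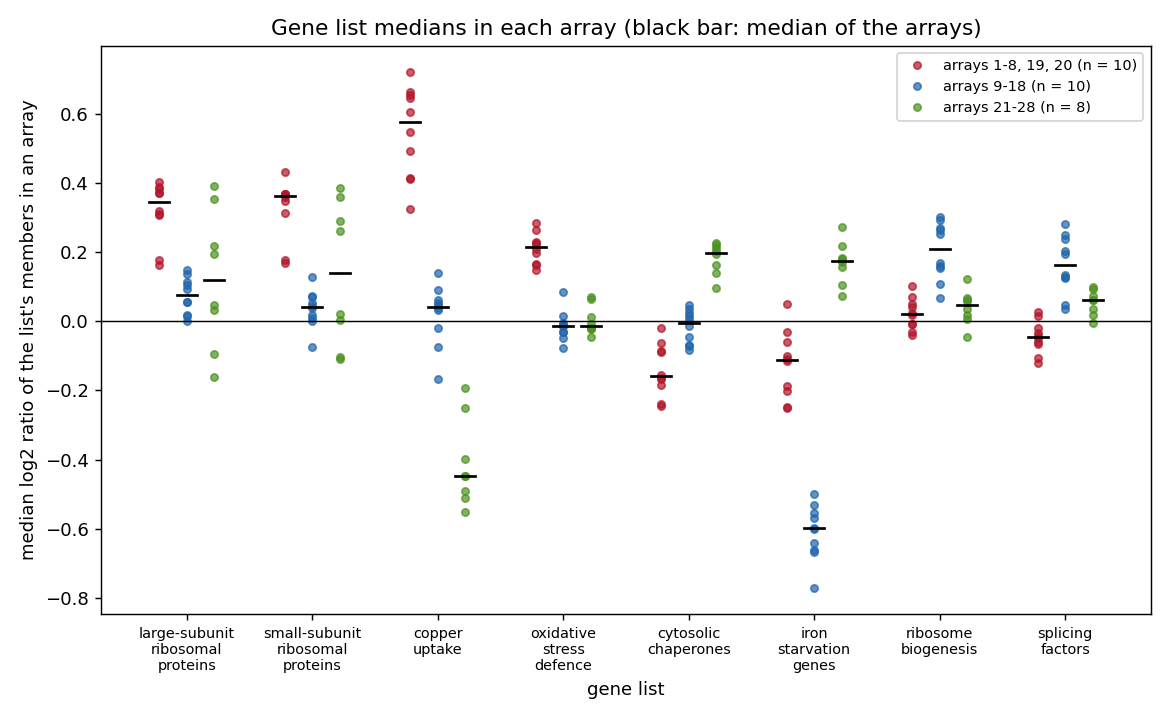
Each point is the median log2 ratio of a gene list's members in 1 array, and black bars mark the median of the arrays of a set. Copper uptake is at 0.33 to 0.72 in all 10 red arrays and below 0 in all green ones, the ribosomal protein lists are above 0 in every red array, and cytosolic chaperones are below 0 in every red and above 0 in every green array.

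Splicing factors had 5 of 77 genes above 0 (6.49%, against 7.67% of all genes) and 8 below (10.4%, against 5.8%). Their median was -0.07 against 0.18 in arrays 9 to 18. The genes below 0 included prp11 (-0.33 ± 0.06), lsm8 (-0.33 ± 0.09), sap145 (-0.31 ± 0.13) and snu23 (-0.28 ± 0.07), and those above included smd1 (0.43 ± 0.22), prp43 (0.43 ± 0.20) and cwf20 (0.33 ± 0.17). RNA polymerase subunit genes were split as well. Above 0 were 6 of 31 (19.4%), among them rpb8 (0.54 ± 0.33), shared by the 3 nuclear polymerases, rpc19 (0.51 ± 0.24) and rpc1 (0.44 ± 0.27). Below 0 were 3 (9.68%), namely rpb1 (-0.26 ± 0.11), the largest subunit of polymerase II, and the polymerase III genes rpc37 (-0.26 ± 0.08) and rpc82 (-0.23 ± 0.10).

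Several lists of energy and biosynthesis held more genes meeting the rule above 0 than below, though glycolysis and fatty acid synthesis did not. Among all genes the shares were 7.67% above and 5.8% below. Of 48 genes of the respiratory chain and ATP synthase, 8 met the rule above 0 (16.7%) and 0 below, among them cox4 (0.45 ± 0.29), nde1 (0.43 ± 0.28), sdh3 (0.38 ± 0.20) and atp20 (0.36 ± 0.10). The list median was 0.15, against 0.03 in arrays 9 to 18 and 0.04 in arrays 21 to 28. The TCA cycle list had 3 of 20 above 0 (15%), led by sdh3 and the pyruvate dehydrogenase gene pdb1 (0.36 ± 0.30), and 1 below (5%). Glycolysis and fermentation had 1 of 18 on each side (5.56%), the aldolase gene fba1 (0.62) above and the glyceraldehyde-3-phosphate dehydrogenase gene gpd3 (-0.39) below. Vacuolar ATPase genes vma3 (0.46 ± 0.25), vma4 (0.42 ± 0.16), vma2 (0.35 ± 0.25) and vma7 (0.20 ± 0.08) met the rule above 0, 4 of 14 in their list (28.6%). Amino acid biosynthesis had 10 of 74 above 0 (13.5%) and 1 below, with a median of 0.13 against -0.12 in arrays 9 to 18. Its highest members were the glutamine synthetase gene gln1 (0.75 ± 0.35), the glutamate dehydrogenase gene gdh2 (0.51 ± 0.21) and leu1 (0.38 ± 0.18) of leucine synthesis.

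Secretory and membrane genes gave several of the highest means. The short oligosaccharyltransferase subunit gene ost4, of the enzyme that puts N-glycans on proteins, averaged 1.01 ± 0.53. Its values were 1.12 to 1.66 in arrays 1 to 6 and 19 and 0.21 to 0.35 in arrays 7, 8 and 20. The dolichol-phosphate-mannose synthase gene dpm3 averaged 0.96 ± 0.45 and the translocon gene sbh1 0.75 ± 0.41. All the same, 5 of 49 genes of ER translocation and glycosylation met the rule above 0 (10.2%) and 0 below, not far from the 7.67% of all genes, and the list median was 0.08. Ergosterol synthesis and Sre1 targets had 4 of 34 above 0 (11.8%), led by the isoprenoid genes idi1 (0.70 ± 0.33) and erg12 (0.57 ± 0.27), and 1 below (2.94%). The median of that list was 0.12 against -0.13 in arrays 9 to 18.

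The nitrogen list held 4 genes above 0 (17.4%) and 3 below (13%) among 23. The proline and arginine breakdown genes put2 (0.51 ± 0.20) and car2 (0.50 ± 0.23), the amino acid permease gene per1 (0.40 ± 0.17) and the peptide transporter gene ptr2 (0.39 ± 0.20) were above. The transporter genes isp4 (-0.33 ± 0.08) and agp3 (-0.22 ± 0.10) and lsd90 (-0.26 ± 0.06) were below. Of 11 pyrimidine and uracil genes, 3 were above 0, ura5 (0.44 ± 0.29), ura6 (0.32 ± 0.11) and the uracil-regulated gene urg2 (0.26 ± 0.08), and the uracil permease gene fur4 (-0.15) was below. The proteasome had 3 of 32 above 0 (9.38%, against 7.67% of all genes), pre8 (0.42 ± 0.33), pts1 (0.28 ± 0.18) and pup1 (0.28 ± 0.10), and 1 below (3.12%).

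Genes known from meiosis lay mostly below 0. Of 109 mug and meu genes, 12 met the rule below 0 (11.0%, against 5.8% of all genes) and 1 above (0.917%, against 7.67%). A mean above 0 was found in 31 of them, and in 2644 of all 4929 genes. The members farthest below were mug72 (-0.51 ± 0.12), meu18 (-0.42 ± 0.09), mug35 (-0.34 ± 0.12) and mug28 (-0.33 ± 0.08). The list median was -0.09 in the 10 arrays, -0.07 in arrays 9 to 18 and -0.03 in arrays 21 to 28. Actin and tubulin genes were even, with 3 of 32 on each side (9.38%). The actin depolymerising factor gene adf1 (0.40 ± 0.17), alp6 (0.30 ± 0.18), of the gamma-tubulin complex, and arc5 (0.29 ± 0.19), of the Arp2/3 complex, were above. The tubulin biogenesis gene alp41 (-0.64 ± 0.17), the cell-end marker gene tea1 (-0.40 ± 0.09) and the coronin gene crn1 (-0.31 ± 0.12) were below. The actin gene act1, often used as a reference, averaged 0.12 ± 0.06 and ran from 0.03 to 0.21, but its lowest single probe value was -0.01, so it missed the rule.

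The remaining lists gave few or no genes. One gene met the rule above 0 among 12 purine biosynthesis genes. One gene met it below 0 in each of the lists of zinc homeostasis (10 genes), fatty acid synthesis (13), MBF targets of the G1/S transition (20), mating and pheromone response (29) and flocculins and adhesins (8), the last 2 sharing mam3. Hexose transport and glucose repression gave 2 above and 1 below among 21, mitosis and septation 1 above and 2 below among 27. Histones (10 genes), thiamine-repressed genes (12), phosphate acquisition (7) and the wtf genes and retrotransposons (19) gave 0. Among 143 genes of clones from chromosome ends, 14 met the rule above 0 (9.79%) and 12 below (8.39%), near the shares of all genes. SPAC1039.02, which the tables used here leave without a name, belonged to this list and had the highest mean of all genes, 1.37 ± 0.23, with 1.13, 1.30 and 1.70 as lowest, median and highest value. It was above 0 in arrays 9 to 18 too (0.56 ± 0.14, limma adjusted p = 1.96e-08) but at 0.04 ± 0.15 in arrays 21 to 28 (limma adjusted p = 0.567). Its list also held SPAC977.14C (0.80 ± 0.23), ftm5 (0.72 ± 0.08) and alr2 (0.71 ± 0.23). Over the 38 lists, which hold 1302 genes, 188 of the 378 genes above 0 and 77 of the 286 below were members of at least 1.

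**Figure D3:**
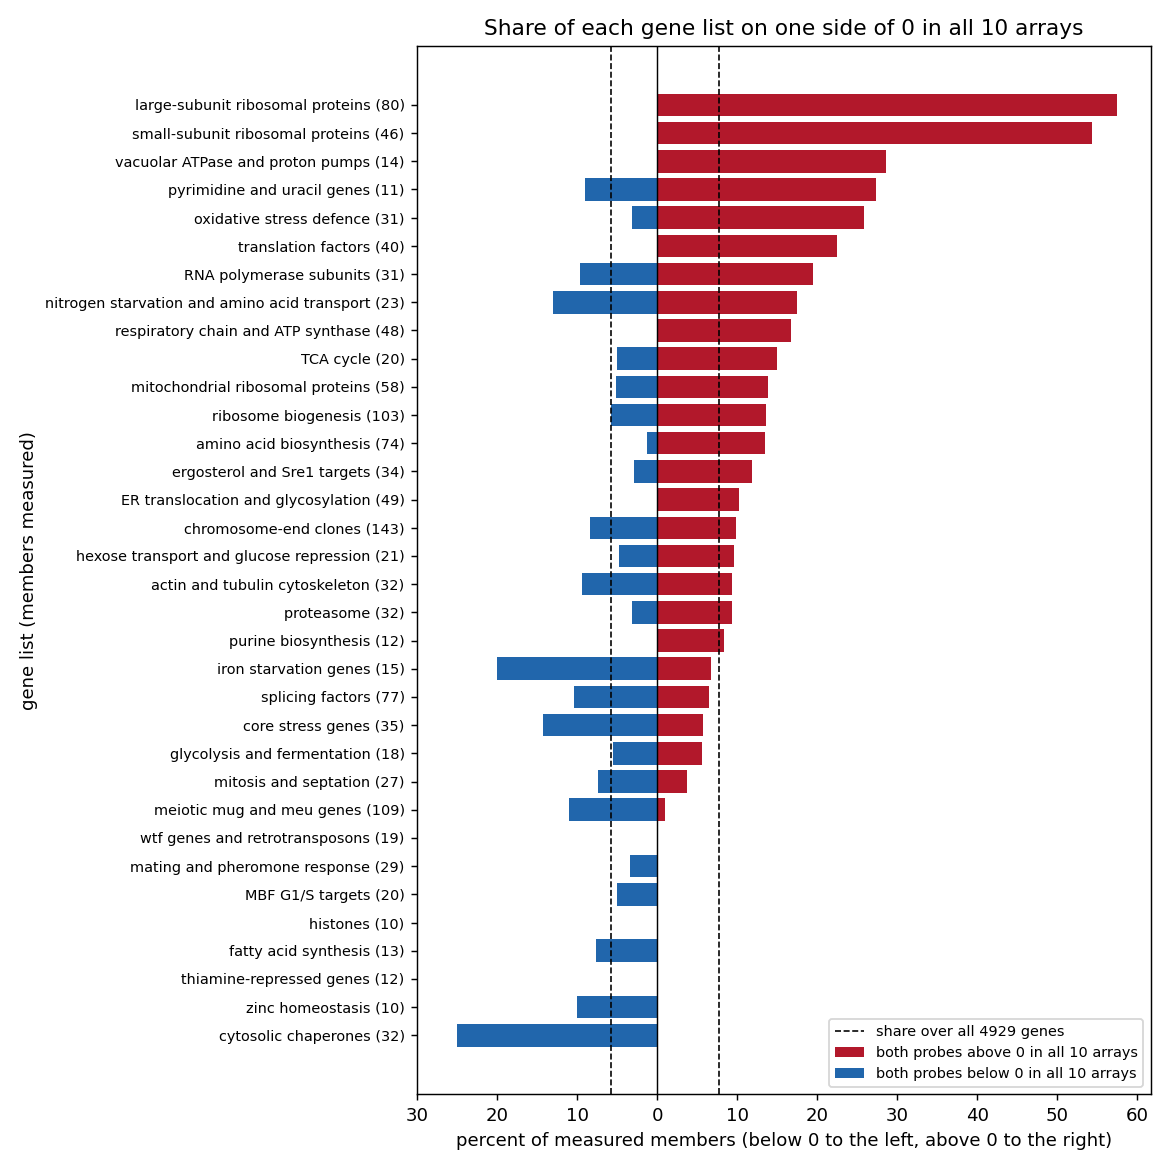
Bars give the percent of each list's measured members that lay above 0 (red, right) or below 0 (blue, left) by both probes in all 10 arrays, for the lists of 10 or more genes, with the number measured in brackets. The dashed lines mark the shares over all 4929 genes, 7.67% above and 5.8% below. The ribosomal protein lists reach 57.5% and 54.3% above 0, and cytosolic chaperones 25.0% below.

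Some of the genes farthest from 0 belonged to no list. The CSL transcription factor gene cbf12 averaged 0.98 ± 0.35 and ckb1, the regulatory subunit gene of casein kinase 2, 0.85 ± 0.45. SPBC3H7.05C and SPAC630.12, without names in the tables used here, averaged 0.97 ± 0.29 and 0.82 ± 0.54. Below 0, the gene cnp3 of the kinetochore protein CENP-C averaged -0.66 ± 0.14 and ran from -0.86 to -0.41. In arrays 9 to 18 it ran from 0.05 to 0.75 (mean 0.36 ± 0.24, limma adjusted p = 9.87e-05), and in arrays 21 to 28 from -0.46 to 0.26, overlapping the 10 arrays. The biotin transporter gene vht1 averaged 0.38 ± 0.12 in the 10 arrays and -0.89 ± 0.17 in arrays 9 to 18. SPBP22H7.04 averaged -0.49 ± 0.10 in the 10 arrays and 0.54 ± 0.29 in arrays 21 to 28. Both were named only for their difference from the other arrays, so no test is given. The genes gst2, obr1 and SPAC1039.02 were also among those of largest difference. Their mean in the 10 arrays or their list named them as well, and their p-values above keep that limit.

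Seen over all 664 genes, the medians elsewhere were nearer to 0, as picking genes by their departure in the 10 arrays would in part bring about. Single genes such as fio1, psi1 and urg2 lay farther from 0 in arrays 9 to 18. The genes above 0 had a median of 0.08 in arrays 9 to 18 and 0.02 in arrays 21 to 28, and the genes below 0 had -0.08 and 0.03. In the 18 other arrays together, limma called 153 of the 378 genes above 0 (40.5%), where it called 27.8% of all genes, and 36 below 0 (9.52%). Of the 286 genes below 0 it called 98 on the same side (34.3%, against 27.7% of all genes) and 82 on the other (28.7%, against 27.8%). These calls treat the 18 arrays as independent although they form 2 correlated sets, so the p-values are too small. With the set as a random block the calls fell to 16 (4.23%, against 0.933% of all genes) and 9 (3.15%, against 0.893%). Without centring, the 153 and 98 calls became 110 and 113, beside 19.9% and 31.4% of all genes.

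The sets were also tested apart, where the arrays of a set were grouped by these same values and p-values are again too small. In arrays 9 to 18 limma called 193 of the 378 genes above 0 (51.1%, against 32.9% of all genes) and 41 below (10.8%, against 33.0%). Of the 286 genes it called 137 below 0 (47.9%) and 85 above (29.7%). In arrays 21 to 28, 63 of the 378 were called above 0 (16.7%, against 12.3%) and 51 below (13.5%, against 14.1%). Of the 286, 30 were called below 0 (10.5%, against 14.1%) and 54 above (18.9%, against 12.3%). Held to the same rule in arrays 9 to 18, 48 genes were above 0 in both sets, which is 12.7% of the 378 and 15.8% of the 304 of arrays 9 to 18. Another 52 were below 0 in both, 18.2% of the 286 and 15.4% of 338. With arrays 21 to 28, 11 were shared above (2.91% of the 378 and 10.1% of 109) and 2 below (0.699% of the 286 and 2.35% of 85). The shares of all genes meeting that rule were 6.17% and 6.86% in arrays 9 to 18, and 2.21% and 1.72% in arrays 21 to 28.

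**Figure D4:**
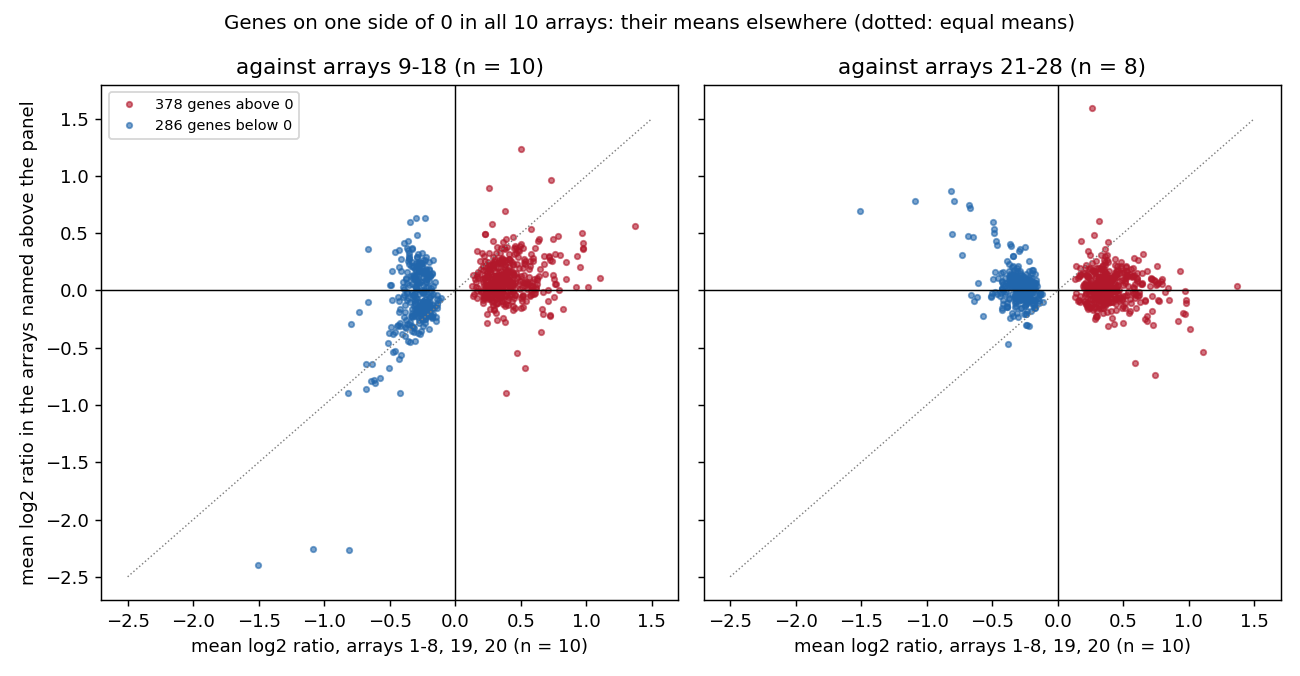
Each point is 1 of the 664 genes, 378 above 0 in red and 286 below 0 in blue, with its mean log2 ratio in the 10 arrays on the x axis and its mean in arrays 9 to 18 (left) or 21 to 28 (right) on the y axis. Dotted lines mark equal means. The 3 lowest points at left are fio1, fip1 and frp1, which lie above 0 at right.

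Of the 16 genes above 0 that passed with the set as a block, 11 were in the ribosomal protein lists (68.8%), against 13 of all 46 genes so called (28.3%) and 71 of the 378 (18.8%). The 11 were rpl42, rpl29, rpl22, rpl31, rpl1901, rpl3201, rpl3202, rps2402 and rps3002, with ubi3 and ubi5, ubiquitin genes fused to ribosomal protein sequence. The gene ubi3, named here because it had the smallest p with the block, averaged 0.38 ± 0.12 in the 10 arrays, 0.70 ± 0.13 in arrays 9 to 18 and 0.31 ± 0.07 in arrays 21 to 28. Below 0 the 9 included alp41 (limma adjusted p with the block = 0.0157), gap1 and sdu1. On the average of its probes, 11 of the 378 genes lay above 0 in all 28 arrays, where 24 of all genes did (0.487%), and 9 of the 286 lay below in all 28, where 22 did (0.446%). Genes of the opposite kind, whose 10 values lay beyond all 18 others, numbered 58 of the 378 (15.3%, against 1.83% of all genes) and 56 of the 286 (19.6%, against 1.66%). These shares are set in part by the rule itself and no test was made of them. They include gst2, obr1, ctr4, plr1 and SPAC1039.02 above and the splicing genes snp27 and prp11 below, named after their values were seen.

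The 10 arrays were not alike in size. For genes above 0 the median of the gene means was 0.42 in arrays 1 to 6 and 19 and 0.25 in arrays 7, 8 and 20. For genes below 0 it was -0.31 and -0.23. In 104 of the 378 genes every array of the first subset lay above every array of the second, and 4 had the reverse order, with tif1 and ost4 among the 104. Of the 286 genes below 0, 40 had every array of the first subset below the second, and 1 had the reverse order. The subsets were told apart by these same values, and no share of all genes stands beside these counts. They are thus no more than a description. Genes with little spread over the 10 arrays, such as fio1, gst2, ctr4 and ctr5, had like means in both subsets.

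Genes above 0 were short. By the RefSeq gene table, their median length was 1214 bases, against 2096 for genes below 0 and 1857 for genes meeting neither side. In the shortest of 4 equal groups of genes (129 to 1251 bases) 16.1% met the rule above 0 and 5% below, and in the longest (2573 to 15232 bases) 1.51% and 8.03%. Without the cytosolic ribosomal protein genes, whose median length was 686 bases, 11.4% of the shortest group still met the rule above 0, and the genes above 0 had a median length of 1393.5 bases. Length moved with the ratio in single arrays as well, at Spearman's rho from -0.24 to -0.17 in the 10 arrays, from -0.21 to -0.14 in arrays 9 to 18 and from -0.17 to 0.03 in arrays 21 to 28, across genes. The part of length in the gene groups above was not tested. Position along the chromosomes showed no such order, since among 4788 pairs of neighbouring genes 25 were both above 0, 14 both below and 39 on opposite sides, with r = 0.03 between neighbours' means.

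**Figure D5:**
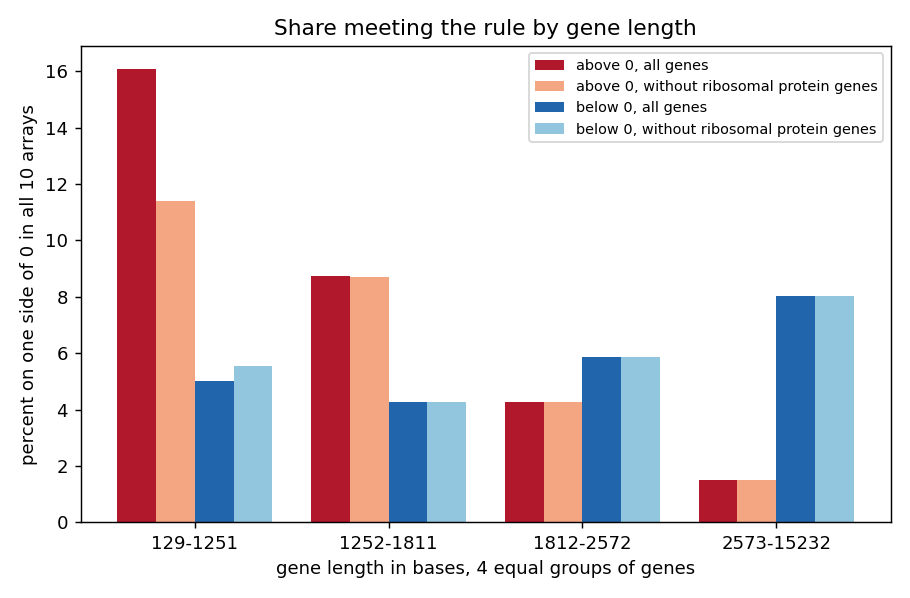
Bars give the percent of genes above 0 (reds) and below 0 (blues) by both probes in all 10 arrays, in 4 equal groups by gene length in bases, for all genes and without cytosolic ribosomal protein genes. From the shortest to the longest group the share above 0 goes from 16.1% to 1.51%, and the share below 0 is 8.03% in the longest.

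At the edge of the rule, genes just inside were SPAC630.12 and nde1 above 0, whose lowest probe values were both 0.00 after rounding, and dal51 and nup124 below 0. Just outside were ubi1 (mean 0.58 ± 0.22) and hpt1 (0.29 ± 0.16), and below 0 mtl2 (-0.15 ± 0.06) and erg31 (-0.16 ± 0.06), each with 19 of 20 probe values on the side. The gene leu1, mutated in this strain, met the rule with 0.38 ± 0.18. A single probe value thus decided such cases, and ubi1 had a larger mean than most genes inside.

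The size of a mean rested on the probe for some genes, while its side is fixed by the rule. In 20 of the 120 named genes that met the rule, the mean of a probe was over 1.5 times from the average of both. The widest were ctr6, already given, sdh3 (probe means of 0.63 and 0.14), smd1 (0.71 and 0.16), cox4 (0.18 and 0.73), adf1 (0.16 and 0.64) and put2 (0.21 and 0.81). The others were leu1 (0.16 and 0.59), utp6 (0.37 and 1.32), tif6 (0.25 and 0.85), per1 (0.59 and 0.21), nde1 (0.23 and 0.62), rpl39 (0.34 and 0.92) and drs1 (0.42 and 1.02). For cwf20, tif212, snu23, pup1, pre8, SPBC3H7.05C and lsd90 it was at most 1.63 times.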

How the data were processed

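The labels describe self-self hybridisations of total RNA extracted with hot phenol and labelled with Cy3 or Cy5. Images from a GenePix 4000A scanner were quantified in GenePix Pro 4.0, with background correction and removal of flagged and dim spots, per the labels. The deposited values are log2 ratios, per the labels medians, for 9858 probes in 28 arrays with 0 missing. No source used here gives the normalization, the channel order or the genome build, and spot intensities were not used, so the number of arrays limits the precision.

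Of the probes, 9632 had a single gene, 44 several and 182 none. Names and lengths of 4791 identifiers came from the RefSeq gene table of assembly ASM294v3. Array medians were subtracted, and a gene's value is the average of its 2 probes. The arrays 9 to 18, 21 to 28 and both together were tested for a mean other than 0 with limma 3.58.1 (lmFit, robust eBayes, two-sided) in R 4.3.3. Benjamini-Hochberg adjustment ran over 4929 identifiers, with a threshold of 0.05, after a check on simulated data. The simulated arrays were drawn independently of each other, so that check does not cover the correlation between arrays of a set. No test was made of the 10 arrays against the others, because the arrays were grouped on these same values. The genes, the sets of arrays and the 38 lists were chosen with earlier results of these data known, and some lists were trimmed by known function after values were seen, so no list is independent evidence.

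Named genes were, per direction, the 12 of largest mean, the 6 of largest difference from the other arrays, up to 4 per list with 3 or more genes meeting the rule, 2 just inside and 2 just outside, with act1 and leu1. Other named genes were picked after their values were seen. Alternatives were no centring, scaling, each probe alone, minimum sizes, an ordinary prior, the set as a random block, subsets of arrays and each array left out. Promoter motifs were not analysed here. No p-value shows that the cultures differed, since separate cultures and repeated labellings cannot be told apart.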

Additional observations from a re-analysis of the deposited data

How the results depend on the processing

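The number of genes on one side of 0 depended on how strict the rule was. The 378 genes above 0 became 925 on the average of the probes, 700 with probe 1 alone, 706 with probe 2 alone, 134 when every probe value had to be at least 0.1 from 0, 576 in arrays 1 to 6 and 19, and 970 in arrays 7, 8 and 20. The 286 genes below 0 became 785, 631, 687, 96, 522 and 875 under the same settings, and 126 with an absolute mean of at least 0.3. Leaving out each of the 10 arrays in turn gave 383 to 461 genes above 0 and 298 to 333 below. Each of these settings asks the rule of fewer values or sets a higher bar, so the counts move by construction. In the 18 other arrays, the 153 and 98 genes called on the same side became 16 and 9 with the array set as a random block, and 15 and 13 with an absolute mean of at least 0.3. In arrays 21 to 28, the 93 calls on the same side became 51 without centring, and the cause was not tested. Scaling each array cannot change the side of a value, so it left the 378 and 286 genes as they were by construction. Among the limma calls, scaling and an ordinary prior moved no count by over 1.5 times. Of the 120 named genes that met the rule, 0 changed sign under no centring. With either probe alone or an array left out, their sign is fixed by the rule, so those settings could not change it. Of all 125 named genes, 19 moved by over 1 SD between arrays with each probe alone. Between 1 and 5 list medians changed sign under no centring, either probe or either subset, and the largest of these was 0.09 from 0. No paired analysis was possible because the 28 arrays are all of one group.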

Other observations

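In 16 genes the 2 probes lay on opposite sides of 0 in all 10 arrays, so that each probe was steady and their average was not. The widest gap was in tif310, a translation initiation factor gene, with probe means of 0.89 and -0.19. In wdr74 they were 0.84 and -0.17, in cox24 0.62 and -0.34, in mrpl40 0.19 and -0.71, and in pet127 0.40 and -0.48. Another 1364 genes were on one side of 0 in all 10 arrays by 1 probe but not by the other. Across all genes the probe means correlated at r = 0.63. Probe sequences were not used here, and which part of a transcript each probe reports was not tested. These genes are left out of the 664 by construction.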
